A study of Rattus norvegicus with 6 samples.

Results

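The genes described here make and check the proteins that enter the endoplasmic reticulum (ER). They comprise chaperones, lectin chaperones, protein disulfide isomerases, sensors and targets of the unfolded protein response (UPR), ER-associated degradation (ERAD), the translocon, the translocon-associated protein (TRAP) complex, signal peptidase and oligosaccharyltransferase. A list of 38 gene symbols in 10 roles was matched to the 33022 loci of the deposited table, taking the locus with the highest mean where a symbol was repeated, and 35 were found. Hsp90b1 and Pdia4 lay on loci merged with a second symbol, so their values are given apart and are not counted, and Sec61g was not analysed here. All 35 genes had a mean of at least 1 FPKM (fragments per kilobase of transcript, scaled to the mapped fragments) over the 6 libraries, and none was listed at 0 in any library.

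Livers came from male obesity-prone Sprague Dawley rats of 160 to 190 g at the start, which ate a control diet (CD) or a Western diet (WD, rich in milk fat and sucrose) for 2 weeks. Per the study, all were fasted overnight and given their own diet again in the morning, shortly before the livers were taken. RNA was measured as total RNA, as the light gradient fraction (mRNAs with at most 3 ribosomes) and as the heavy fraction (at least 4 ribosomes). RNA of 3 rats was pooled for each of the 6 libraries, so each combination of diet and RNA had 1 library, no value has a replicate and no difference between diets could be tested.

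Secretory proteins enter the ER through the Sec61 channel, lose their signal peptide to signal peptidase, receive sugar chains from oligosaccharyltransferase and fold with the help of chaperones and disulfide isomerases. Hepatocytes carry a dense ER because they secrete most plasma proteins. When unfolded proteins collect, the sensors encoded by Ern1 and Atf6, together with the factor encoded by Xbp1, raise transcription of chaperone and ERAD genes, in part through the ER stress response element (ERSE) in their promoters.

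The promoters that hold this element are shown first because they are the known route from the sensors to the chaperone genes. The search covered up to 250 bases before and up to 50 after each gene's start in RefSeq (GRCr8), on both strands. For Dnajb11 the sequence shown stops at the end of its element, at the gene's first base. ERSE was taken as CCAAT, any 9 bases and CCACG, and was found in 22 of 33469 promoters (0.0657%). ERSE-II, taken as ATTGG, any base and CCACG, was found in 17 (0.0508%). Of the 38 genes, 32 had a promoter in the table, and 7 of these held ERSE and another 3 ERSE-II. Windows are given 5′ to 3′ on the strand of the gene, with the parts of the element in capitals, so an element on the other strand reads CGTGG before ATTGG or CCAAT.
Hspa5, chr3:38452961-38453003, plus strand: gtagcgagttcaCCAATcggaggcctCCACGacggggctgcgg
Dnajc3, chr15:102432522-102432564, plus strand: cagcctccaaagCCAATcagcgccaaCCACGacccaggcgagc
Calr, chr19:40213123-40213165, plus strand: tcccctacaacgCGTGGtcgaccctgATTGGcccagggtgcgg
Canx, chr10:35158057-35158099, minus strand: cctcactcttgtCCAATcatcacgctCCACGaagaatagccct
Xbp1, chr14:84604546-84604588, plus strand: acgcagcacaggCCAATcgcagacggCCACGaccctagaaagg
Creld2, chr7:121789227-121789269, plus strand: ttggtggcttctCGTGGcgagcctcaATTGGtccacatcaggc
Hsp90b1, first copy, chr7:23012439-23012481, minus strand: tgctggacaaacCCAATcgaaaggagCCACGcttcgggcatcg
Hsp90b1, second copy, chr7:23012335-23012377, minus strand: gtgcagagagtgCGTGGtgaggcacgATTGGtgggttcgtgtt
Herpud1, ERSE-II, chr19:10614809-10614843, minus strand: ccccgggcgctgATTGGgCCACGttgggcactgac
Dnajb11, ERSE-II, chr11:91672800-91672822, minus strand: tcccaggcggcgATTGGcCCACG
Hyou1, ERSE-II, first copy, chr8:53602682-53602716, plus strand: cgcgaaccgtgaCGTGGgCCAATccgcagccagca
Hyou1, ERSE-II, second copy, chr8:53602782-53602816, plus strand: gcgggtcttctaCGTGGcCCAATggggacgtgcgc

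With the first base of the gene as 0, the element of Hspa5 lay from -43 to -25, that of Xbp1 from -65 to -47 and that of Dnajc3 from -133 to -115. A further UPR element, TGACGTGG, was found in 199 promoters (0.595%) and in 1 of the listed genes, Hyou1, where it overlapped the first ERSE-II copy. Ern1, Atf6, Pdia3, Pdia6, Manf and Sec61a1 were not in the promoter table. A match describes the letters only, and binding was not measured.

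The ER genes were expressed over a wide range. Their means over the libraries ran from 6.86 FPKM for Ssr2 to 572 FPKM for P4hb, and 3 were under 10 FPKM. In CD total RNA their FPKM summed to 3309, against 3697 in WD total RNA. The sums were 3015 and 3194 in the light fraction and 4193 and 4599 in the heavy fraction, in the same order. Each sum was thus higher in WD, although a few abundant genes dominate it. The sum over all named loci was lower in WD for total RNA (617369 against 659742), and higher for the light (867734 against 679535) and the heavy fraction (700724 against 689208).

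**Figure D1:**
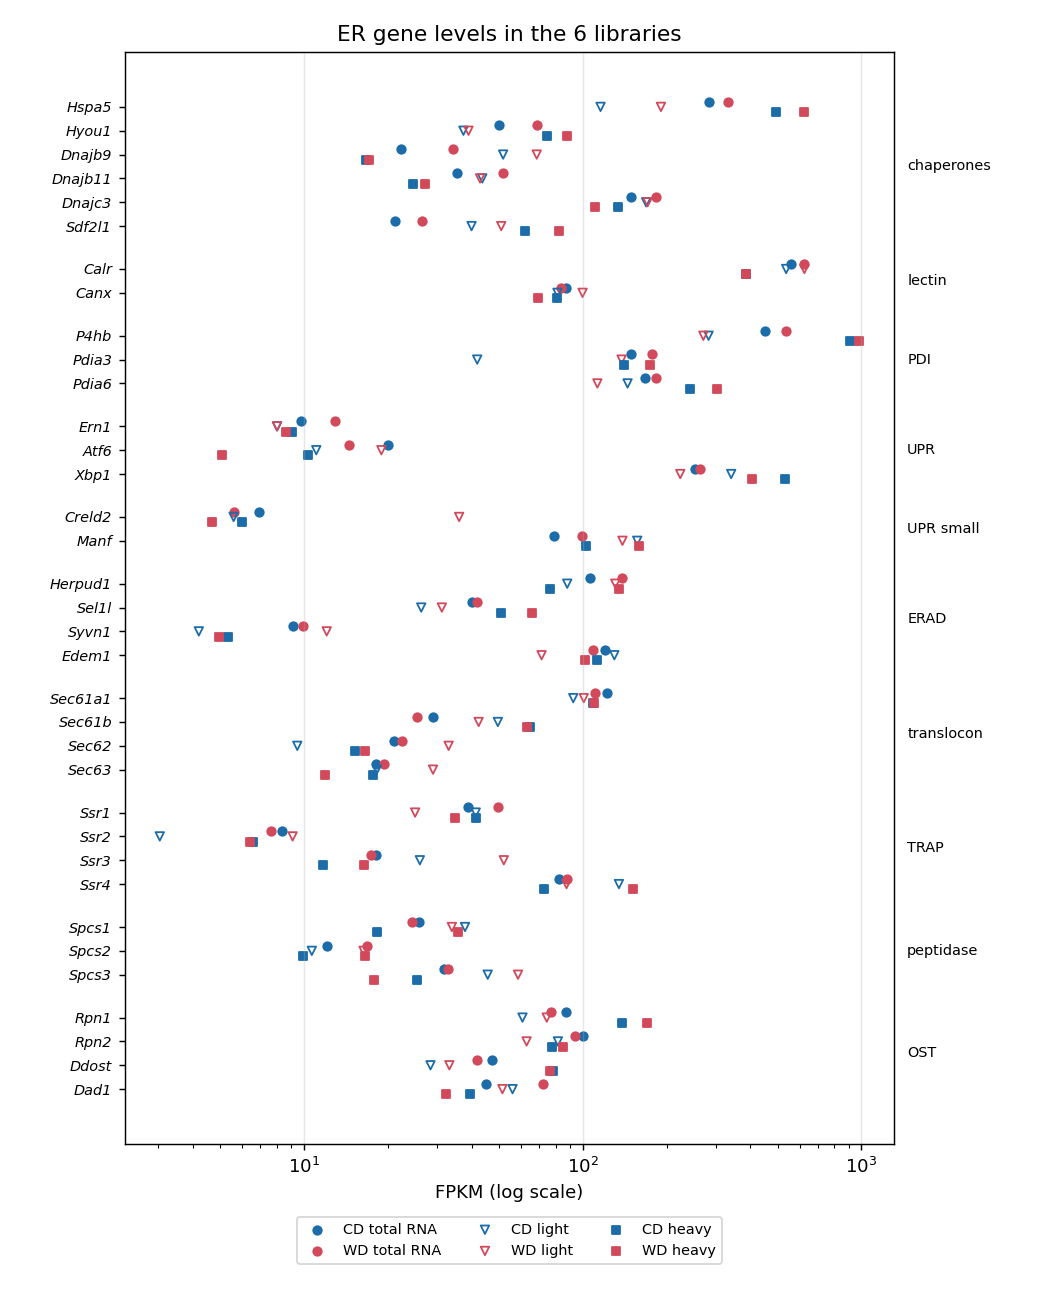
FPKM (log axis) of the 35 ER genes in the 6 libraries, grouped by role, with circles for total RNA, open triangles for the light and squares for the heavy fraction, blue for CD and red for WD. P4hb reaches 983 FPKM in the WD heavy fraction, whereas Ssr2 stays under 10 FPKM in every library, and Creld2 has 1 value, in the WD light fraction, far to the right of its others.

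Depth limits what these levels can show. The number of fragments behind a value could be inferred for 30 of the 35 genes (not for Ern1, Sel1l, Sec63, Ssr1 and Rpn2). Per library, the median of these genes was 54 to 205 fragments, against 8 to 23 for all loci compared, and the WD light library was the deepest, at 2.34 times the CD heavy library. The WD light library also stood apart in its content. FPKM of loci with a symbol summed to 867734 there and to between 617369 and 700724 elsewhere, and the 7 blood cell markers, of which Ppbp, S100a8 and S100a9 were at 0 in all libraries, summed to 503 FPKM there, to 98.5 in CD light and to between 17.1 and 53.8 in the other 4. The 8 hepatocyte markers summed to at least 44683 FPKM in every library, whereas the plasma cell list, another cell type rich in ER, summed to between 5.21 and 11.2 FPKM. In whole liver, fewer cells of a type and less RNA per cell cannot be told apart.

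In total RNA, chaperone mRNAs were higher in WD than in CD, by small amounts. All 6 chaperone genes counted were higher, with a median log2 ratio of 0.38, and all 3 disulfide isomerases were higher, with a median of 0.25. The oligosaccharyltransferase and translocon genes had medians of -0.13 and -0.02. Over all 35 genes, 23 were higher and 12 lower, with a median of 0.10. Over the 10201 named loci whose mean reached 1 FPKM, 51.1% were higher and the median was 0.02.

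Calls here mean a WD over CD ratio of at least 1.5 or at most 0.75 after adding 0.1 FPKM. The study used these 2 numbers for heavy over light of CD against WD, so their use for WD over CD and for abundance is a choice made here. There were 2 at or above the upper threshold, where 17.7% of all loci compared lay, and 1 at or below the lower, where 22.7% lay. Those shares include many low loci. Among the 4069 loci whose mean reached 10 FPKM they were 8.77% and 16.2%, and the same 3 calls fell among 32 ER genes. By these WD over CD thresholds the ER genes were thus not called more often than other loci. The upper and lower thresholds are not symmetric on the log scale. Applied to CD over WD, they called 5 genes higher in WD total RNA, namely Hyou1, Dnajb9, Dnajb11, Spcs2 and Dad1. They then called 0 lower, so Atf6 was no longer past a threshold there. Shares of all loci are not given for the thresholds applied this way, so the 5 and 0 cannot be set against the rest.

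A 95% interval for counting error was computed where fragments were inferred. It compares 2 libraries, not 2 diets, and PCR reads are not independent molecules. In total RNA it lay above 1 for 10 of 30 genes and below 1 for 1, against 7.54% of all loci in either direction, which had fewer fragments per gene.

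Dnajb9 encodes a co-chaperone of BiP that also restrains the sensor encoded by Ern1. In total RNA its level was 22.3 FPKM in CD and 34.4 in WD. It was 51.9 and 68.5 in the light fraction and 16.7 and 17.1 in the heavy fraction. The total RNA ratio was 1.54 (1.04 to 2.32), from 44 and 65 fragments, at a locus 0.442 times as long as the RefSeq gene. The light ratio was 1.32 (1 to 1.76). The heavy values were nearly alike, at a ratio of 1.02 (0.536 to 1.95) from 21 and 22 fragments. That interval also holds the total RNA ratio, so a difference between total RNA and the heavy fraction is not shown. The WD value was higher by more than counting error in total RNA.

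Hspa5 (Rnor_6.0 chromosome 3, 13838303 to 13842762) encodes BiP, the principal Hsp70 of the ER. In total RNA its level was 284 FPKM in CD and 332 in WD. It was 116 and 191 in the light fraction, and 493 and 622 in the heavy fraction. WD was higher in each pair, with ratios of 1.17 (1.06 to 1.29), 1.65 (1.41 to 1.93) and 1.26 (1.15 to 1.38), and all 3 intervals lay above 1. Only the light ratio passed the upper threshold, and with every library rescaled to the same sum its log2 value fell from 0.72 to 0.37, below the threshold.

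Other chaperones followed in total RNA. Dnajb11, a BiP co-chaperone, had 35.5 FPKM in CD and 51.9 in WD, a ratio of 1.46 (1.07 to 2.02). Hyou1, a large Hsp70 relative that exchanges nucleotide on BiP, had 50.3 and 68.9 FPKM, a ratio of 1.37 (1.16 to 1.62). Dnajc3, which binds unfolded proteins in the lumen, had 149 and 184 FPKM, a ratio of 1.24 (1.05 to 1.46). For all 3 the interval lay above 1 in total RNA, and in neither fraction did it exclude 1. Sdf2l1, which works with the BiP cycle, had 21.3 and 26.5 FPKM from 21 and 25 fragments, and its ratio of 1.24 was not separable from 1 at that depth (0.669 to 2.34).

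Hsp90b1 encodes GRP94, the Hsp90 of the ER. The merged locus that holds it had 210 FPKM in CD total RNA and 268 in WD, a ratio of 1.28 (1.15 to 1.43). In the light fraction it had 96 and 169 FPKM, a ratio of 1.76 (1.5 to 2.07), and in the heavy fraction 120 FPKM in both. The gap seen in total RNA and the light fraction was thus absent from the heavy values, and reads of the second symbol on the locus cannot be told apart. RefSeq also names 2 pseudogenes of Hsp90b1 and 1 of Pdia4.

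The lectin chaperones retain glycoproteins until they fold. In total RNA Calr had 561 FPKM in CD and 623 in WD. It had 537 and 624 in the light fraction, and 384 and 385 in the heavy fraction. Its ratios were 1.11 (1.02 to 1.21), 1.16 (1.07 to 1.27) and 1 (0.881 to 1.14). Canx, the membrane-bound lectin, had 87.3 and 83.5 FPKM in total RNA, a ratio of 0.956 (0.838 to 1.09). In the light fraction it had 81.3 and 100 FPKM, a ratio of 1.23 (1.08 to 1.41). In the heavy fraction it had 80.7 and 69.2 FPKM, a ratio of 0.858 (0.72 to 1.02). The total RNA intervals of Calr and Canx overlapped, and a difference between the lectins was not tested. Both light intervals lay above 1, but with the libraries rescaled to the same sum both genes were lower in WD light.

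Among the disulfide isomerases, P4hb had 450 FPKM in CD total RNA and 537 in WD, 283 and 271 in the light fraction, and 910 and 983 in the heavy fraction. Its total RNA ratio was 1.19 (1.1 to 1.29). Pdia3, the isomerase that partners the lectins, had the same ratio, 1.19 (1.01 to 1.4), and Pdia6 one of 1.1 (0.94 to 1.3). The merged locus that holds Pdia4 had 159 and 185 FPKM, a ratio of 1.16 (1.01 to 1.34). In the heavy fraction the ratio was 1.08 (1.01 to 1.16) for P4hb and 1.24 (1.01 to 1.52) for Pdia3. It was 1.26 (1.07 to 1.47) for Pdia6 and 1.41 (1.2 to 1.66) for the Pdia4 locus. Each of these heavy intervals lay above 1, although no ratio reached the upper threshold.

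The UPR sensors differed in direction in total RNA, although Ern1 had no interval. Atf6 (chromosome 13, 89055982 to 89242443), whose product is cut at the Golgi to release a transcription factor, had 20.1 FPKM in CD total RNA and 14.5 in WD, 11.1 and 19 in the light fraction, and 10.4 and 5.09 in the heavy fraction. It was lower in WD total RNA, at 0.722 (0.525 to 0.985), higher in the light fraction, at 1.7 (1.19 to 2.5), and lower in the heavy fraction, at 0.493 (0.256 to 0.898). With the libraries rescaled to the same sum, the log2 ratios were -0.37, 0.42 and -1.04, and only the heavy one was still past a threshold. Ern1, which encodes the kinase and RNase IRE1, had 9.79 and 13 FPKM in total RNA, a ratio of 1.33 with no interval. It was nearly level in the fractions, with 8.04 and 8.02 FPKM in the light and 9.07 and 8.64 in the heavy fraction. These ratios were 0.997 and 0.953.

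Xbp1, whose mRNA IRE1 splices, had 254 FPKM in CD total RNA and 263 in WD, 341 and 224 in the light fraction, and 530 and 406 in the heavy fraction. Total RNA was level between the diets, at 1.03 (0.868 to 1.23). Both fractions were lower in WD, at 0.658 (0.557 to 0.778) and 0.766 (0.652 to 0.899). Spliced and unspliced Xbp1 mRNA share 1 value per locus, so splicing was not measured.

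The other UPR targets and ERAD genes were mixed. Manf, a secreted protein of stressed cells, had 78.9 FPKM in CD total RNA and 99.6 in WD, 157 and 139 in the light fraction, and 103 and 159 in the heavy fraction. Its heavy ratio was 1.55 (1.06 to 2.27). Herpud1, which helps assemble the ERAD ligase complex, had 106 and 138 FPKM in total RNA, 88.1 and 131 in the light fraction, and 76.2 and 135 in the heavy fraction. Herpud1 was higher in WD in every pair, with ratios of 1.31 (1.08 to 1.59), 1.49 (1.2 to 1.85) and 1.77 (1.36 to 2.31), and only the heavy one passed the upper threshold. Its locus was 0.522 times as long as the RefSeq gene.

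Dad1, the small subunit of oligosaccharyltransferase, was the other gene past the upper threshold in total RNA. It had 45 FPKM in CD total RNA and 72 in WD, 56.1 and 51.6 in the light fraction, and 39.5 and 32.5 in the heavy fraction. The total RNA ratio was 1.6 (1.02 to 2.54), from 34 and 52 fragments. The 3 other subunits counted, Rpn1, Rpn2 and Ddost, were lower in WD total RNA, with ratios of 0.884 to 0.936. The intervals of Rpn1 and Ddost included 1, and the locus of Rpn2 was 2.38 times as long as the RefSeq gene.

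**Figure D2:**
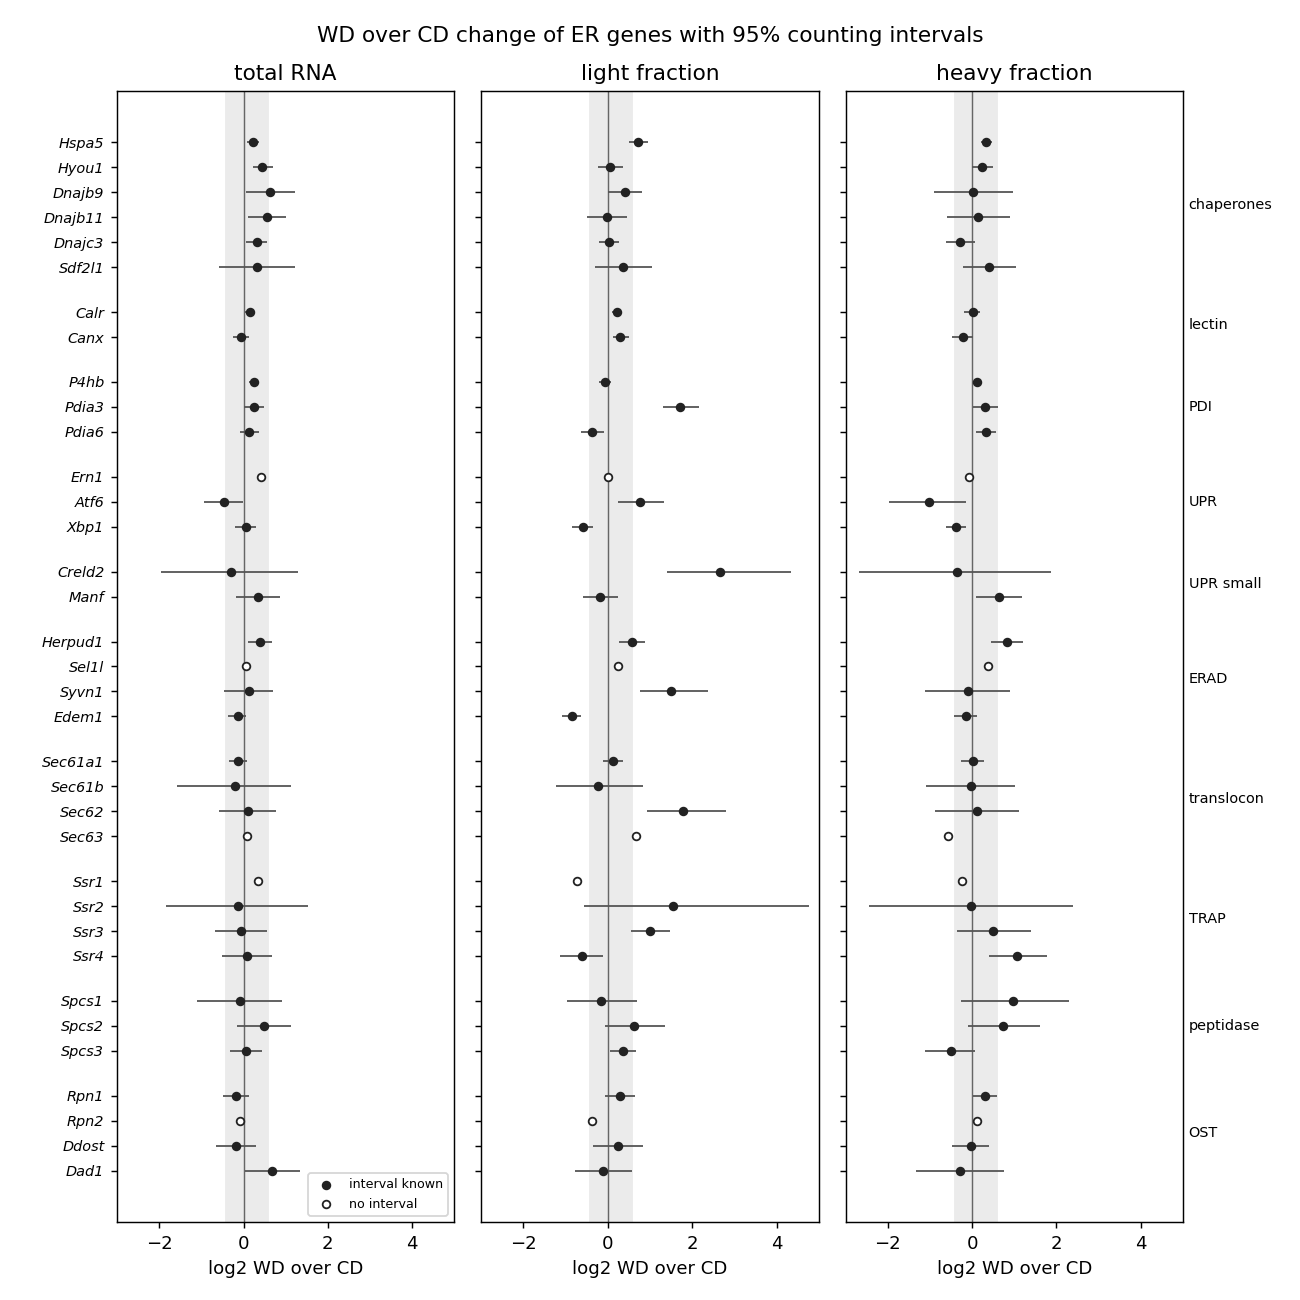
Log2 ratio of WD over CD for each ER gene in total RNA, the light and the heavy fraction, with 95% counting intervals as lines, open points where no fragments were inferred, and the range between the thresholds of 0.75 and 1.5 in grey. In total RNA all 6 chaperones lie above 0 and only Dnajb9, Dad1 and Atf6 leave the grey range, while the light fraction spreads from -0.86 for Edem1 to 2.67 for Creld2.

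Genes with and without a promoter element overlapped in their total RNA ratios. Of the 9 counted genes with ERSE or ERSE-II, 7 were higher and 2 lower in WD, with a median log2 ratio of 0.22 and a range of -0.29 to 0.55. Of the 20 whose promoter held neither, 12 were higher and 8 lower, with a median of 0.08 and a range of -0.20 to 0.68. Canx and Creld2, both with ERSE, were the 2 lower genes, and Dnajb9 and Dad1, the highest, held neither element in this window. In the heavy fraction the medians were 0.01 and 0.07.

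**Figure D3:**
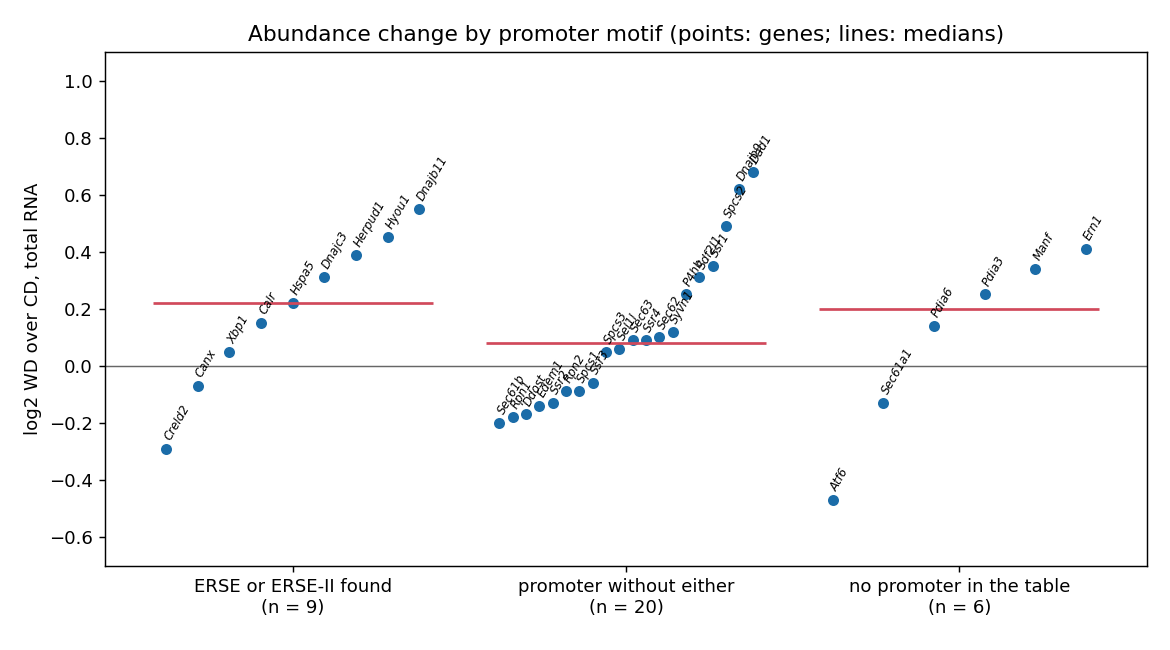
Log2 ratio of WD over CD in total RNA for each ER gene, by whether ERSE or ERSE-II was found in its promoter window, with lines at the group medians. The medians are 0.22 for the 9 genes with an element, 0.08 for the 20 without and 0.20 for the 6 with no promoter in the table, and the ranges overlap.

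In the light fraction the ER genes spread more widely than in total RNA, and so did all loci compared. Quartiles of the log2 ratio were -0.14 and 0.64 for the ER genes and -0.46 and 0.61 for all loci. In total RNA they were -0.09 and 0.32 for the ER genes and -0.35 and 0.38 for all loci. There were 10 at or above the upper threshold (25.9% of all loci compared) and 4 at or below the lower (26.8%), and the median log2 ratio was 0.23, against 0.02 for all loci. Among the 32 ER genes whose mean reached 10 FPKM, 8 were at or above the upper threshold (17.1% of such loci). At or below the lower were 4 (27.2%). The interval lay above 1 for 12 of 30 genes and below 1 for 4, against 18.1% of all loci. These counts rest on the WD light library that stood apart above. With every library rescaled to the same sum, the light median of all loci moved to -0.29 and that of the ER genes to -0.13. Then 6 ER genes were at or above the upper threshold and 11 at or below the lower. The share of all loci past these thresholds is not given for this setting, so the 6 and 11 cannot be set against the rest. Calr, Canx and Hyou1 were then lower in WD in this fraction, whereas Creld2, Sec62, Pdia3, Ssr2, Syvn1 and Ssr3 stayed above the upper threshold, with log2 ratios from 0.65 to 2.31. The same rescaling moved the median of all loci to 0.12 in total RNA, where that of the ER genes was 0.20, and to -0.04 in the heavy fraction. The part of the blood cell markers in these differences was not tested.

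Creld2 (chromosome 7, 129812788 to 129819634), an ER protein induced by stress, had the highest light ratio. It had 5.61 FPKM in CD light and 36.1 in WD light, from 5 and 70 fragments, against 6.9 and 5.61 in total RNA and 6.02 and 4.7 in the heavy fraction. The light ratio was 6.34 (2.63 to 20.4), and the WD light value stood alone above the other 5. Total RNA was not higher in WD, at 0.816 (0.257 to 2.45).

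Sec62, a partner of the Sec61 channel in post-translational import, had 9.49 FPKM in CD light and 33.1 in WD light, against 21.1 and 22.6 in total RNA and 15.3 and 16.6 in the heavy fraction. Its light ratio was 3.46 (1.9 to 7), with CD light the lowest and WD light the highest of its values. Sec63, its partner, had 18.3 and 29.1 FPKM in the light and 17.7 and 11.9 in the heavy fraction, while total RNA was 18.2 and 19.4. The core channel did not share this pattern: Sec61a1 had 122 and 111 FPKM in total RNA, 92.6 and 101 in the light fraction and 109 and 110 in the heavy fraction. Its light ratio was 1.09 (0.926 to 1.29), and for Sec61b it was 0.854 (0.43 to 1.77).

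Pdia3 had 41.9 FPKM in CD light and 138 in WD light, against 149 and 177 in total RNA and 141 and 175 in the heavy fraction. Its light ratio was 3.3 (2.49 to 4.46), and the CD light value stood alone below the other 5. The locus is uncertain: it was 7.21 times as long as the RefSeq gene and overlapped 12 other loci, 7 of them above 0. Syvn1, the ERAD ubiquitin ligase, had 4.21 and 12.1 FPKM in the light fraction, a ratio of 2.83 (1.69 to 5.22), and its locus overlapped Mrpl49.

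Subunits of the TRAP complex, which assists translocation, went different ways in the light fraction. Ssr3 had 26.1 FPKM in CD and 52.2 in WD, a ratio of 2 (1.46 to 2.8), and Ssr2 had 3.05 and 9.13 FPKM from only 2 and 13 fragments, a ratio of 2.93 (0.677 to 27.3). The locus of Ssr3 was only 0.176 times as long as the RefSeq gene. Ssr1 and Ssr4 were lower in WD, at ratios of 0.608 and 0.649. The others below the lower threshold were Xbp1 and Edem1, the latter an ERAD lectin with 130 FPKM in CD light and 71.3 in WD light, a ratio of 0.55 (0.467 to 0.647). The remaining light ratios above the upper threshold were those of Hspa5, Atf6, Sec63 and Spcs2.

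In the heavy fraction, the median of the ER genes lay close to that of the rest. There were 5 at or above the upper threshold (21.7% of all loci compared) and 3 at or below the lower (25.8%), with a median log2 ratio of 0.03 against -0.02. Among the 32 ER genes whose mean reached 10 FPKM there were also 5 and 3, against 13.3% and 19.2% of such loci. The interval lay above 1 for 8 of 30 and below 1 for 2, against 7.76% of all loci. The higher genes were Ssr4, Spcs1, Herpud1, Spcs2 and Manf, and the lower ones Atf6, Sec63 and Spcs3.

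Ssr4 (chromosome X, 156995778 to 156999650) had the highest heavy ratio. It had 82.4 FPKM in CD total RNA and 87.9 in WD, 135 and 87.6 in the light fraction, and 72.5 and 152 in the heavy fraction. The heavy ratio was 2.09 (1.31 to 3.4), the light one 0.649 (0.455 to 0.931), and total RNA was level at 1.07 (0.708 to 1.61). Of the TRAP subunits, the other 3 had heavy ratios from 0.847 to 1.41.

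The subunits of signal peptidase also differed. Spcs2 had 12.1 FPKM in CD total RNA and 16.9 in WD, 10.7 and 16.4 in the light fraction, and 9.97 and 16.6 in the heavy fraction, and was the 1 gene past the upper threshold in both fractions. With the libraries rescaled to the same sum its light log2 ratio was 0.27, and 0 genes passed in both. The share of all loci that passed in both is not given. The 3 intervals of Spcs2 all included 1, as for the heavy ratio of 1.65 (0.928 to 3.04). Spcs3 had 31.8 and 33 FPKM in total RNA, 45.7 and 58.7 in the light fraction and 25.6 and 17.9 in the heavy fraction, where its ratio was 0.701 (0.462 to 1.05). Spcs1 had 18.3 and 35.8 FPKM in the heavy fraction from 9 and 18 fragments, a ratio of 1.95 (0.833 to 4.93). RefSeq lists 1 pseudogene each for Spcs2 and Spcs3, so their reads may be shared.

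Across total RNA, light and heavy, 10 genes were higher in WD each time: Hspa5, Hyou1, Dnajb9, Sdf2l1, Calr, Pdia3, Herpud1, Sel1l, Sec62 and Spcs2. Over all loci compared, 13.4% were. Under the rescaling above, Hyou1, Calr and Sel1l were lower in WD light, and Sdf2l1 was level there. Edem1 and Sec61b were lower each time, which are 2 of 35 (13.4% of all loci). The bounds from Cufflinks were apart between the diets for 0 ER genes in any RNA, and for only 4, 49 and 9 of the 10201 loci in total RNA, light and heavy.

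Heavy over light describes how far an mRNA lies toward many ribosomes relative to other mRNAs, since it compares normalized values and not amounts. Over all loci its median log2 value was 0.01 in CD and 0.00 in WD. In both diets 9 of the 35 genes were past the upper and 6 past the lower threshold. Sec62, Ssr2 and Ssr4 were past opposite ones, a pattern for which no share of all loci is given. In CD, 12 ER genes had a ratio of at least 1.5 (32.9% of all loci compared) and 9 one of at most 0.75 (36.6%), with a median log2 ratio of 0.00. The interval lay above 1 for 8 of 30 and below 1 for 8, against 29.8% of all loci. In WD, 10 were at or above the upper threshold (31.4%) and 14 at or below the lower (38.5%), with a median of 0.11, and the interval lay above 1 for 11 of 30 and below 1 for 11, against 36.9%. With the libraries rescaled to the same sum, the WD counts were 15 at or above the upper and 8 at or below the lower threshold. No rescaled share of all loci is given beside these counts. Without rescaling, 32 ER genes had a mean of at least 10 FPKM. Of these, 11 were past the upper and 9 past the lower threshold in CD (34.9% and 31.9% of such loci). In WD, 10 and 12 were (37.1% and 32.1%). Across the 35 genes, Pearson's r between the log2 ratios of CD and WD was 0.60 and Spearman's rho 0.61, against 0.37 and 0.54 over all loci, where the points share libraries and depth and genes are not independent replicates.

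Genes toward the heavy fraction in both diets were Hspa5, Hyou1, Sdf2l1, P4hb, Pdia6, Xbp1, Sel1l, Rpn1 and Ddost, which are 9 of 35 (19.6% of all loci). Hspa5 had the highest ratio in CD, 4.25 (3.66 to 4.97), and 3.25 (2.97 to 3.57) in WD. P4hb had 3.21 (2.9 to 3.56) and 3.63 (3.36 to 3.93). Rpn1, a subunit of oligosaccharyltransferase, had 87.2 FPKM in CD total RNA and 77.1 in WD. It had 60.9 FPKM in CD light and 138 in CD heavy, 74.4 and 170 in WD, and ratios of 2.26 and 2.29.

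Genes toward the light fraction in both diets were Dnajb9, Dnajb11, Calr, Ssr3, Spcs3 and Dad1, which are 6 of 35 (24.2% of all loci). After the rescaling 3 were still past the threshold in both, namely Dnajb9, Ssr3 and Spcs3. Dnajb9 had the lowest ratio in CD, 0.324 (0.188 to 0.531), and 0.251 (0.153 to 0.388) in WD. Calr had 0.716 (0.635 to 0.806) and 0.617 (0.557 to 0.683). Chaperones thus lay at both ends, and so did subunits of oligosaccharyltransferase, with Ddost at 2.76 and Dad1 at 0.704 in CD.

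**Figure D4:**
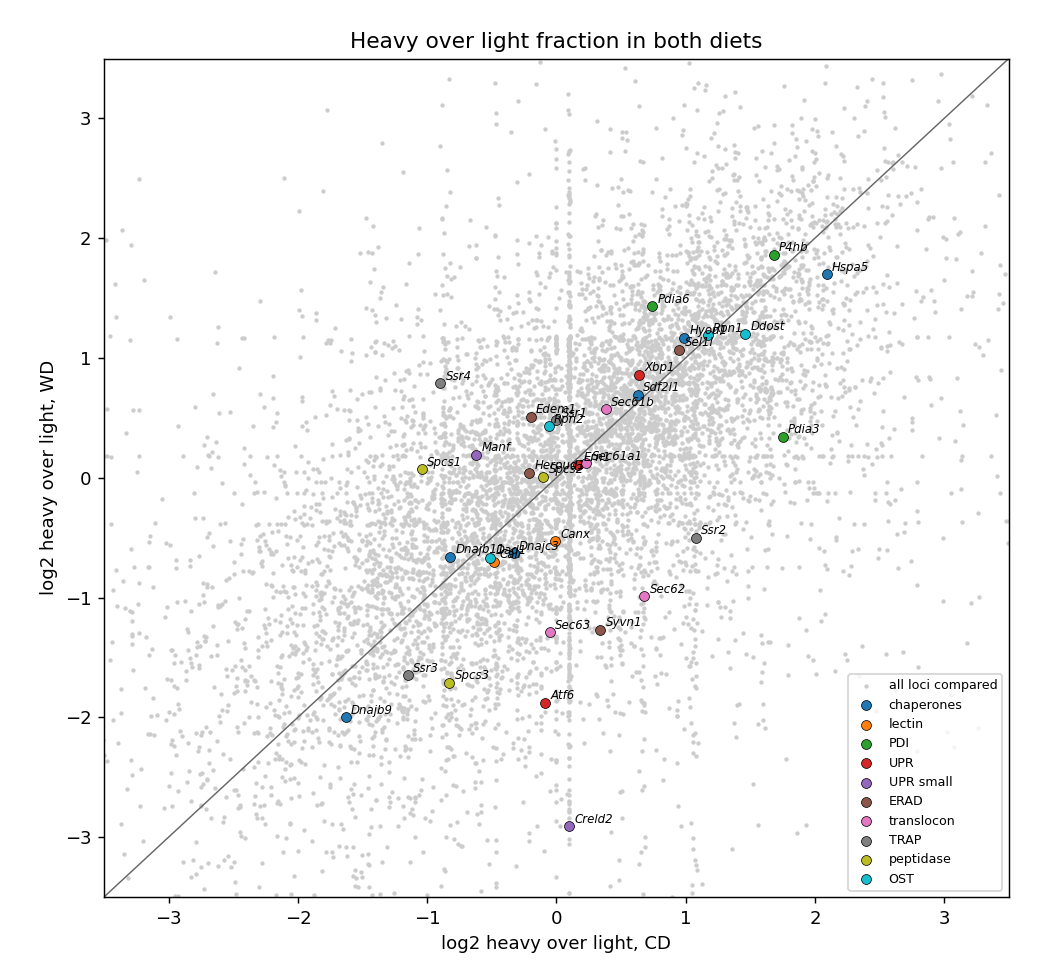
Log2 heavy over light in CD (x axis) and WD (y axis) for all loci compared (grey, with a few outside the axes) and the ER genes (coloured by role), with the line of equality. Hspa5 and P4hb lie at the upper right and Dnajb9 at the lower left near the line, whereas Ssr4 lies well above it and Creld2, Atf6 and Sec62 well below.

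The change in this ratio, taken as WD over CD, is called the ribosome density change. There were 5 ER genes at or above the upper threshold (27.7% of all loci compared) and 10 at or below the lower (36.1%), with a median log2 change of -0.06 against -0.02. Among the 32 ER genes whose mean reached 10 FPKM there were 5 and 8, against 23.3% and 27.6% of such loci. With the thresholds applied to CD over WD, the direction the study used, 7 were higher and 8 lower in WD. Ssr1 and Rpn2 then came in, and Canx and Ssr3 dropped out. No share of all loci is given for these counts. The interval, from a conditional odds ratio, lay above 1 for 4 of 30 and below 1 for 8, against 10.2% of all loci. The rescaling above moved the median of all loci to 0.28 here and to 0.26 for heavy over light in WD.

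Upward changes were at Ssr4, 3.22 (1.77 to 5.92), Spcs1, 2.17 (0.757 to 6.55), Manf, 1.75 (1.09 to 2.82), Edem1, 1.64 (1.27 to 2.12), and Pdia6, 1.62 (1.26 to 2.08). Pdia6 had 145 FPKM in CD light and 242 in CD heavy, and 113 and 304 in WD, so the fractions moved apart from both sides. Edem1 had 113 and 102 FPKM in the heavy fraction, so its change came from the light values.

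Downward changes were led by Creld2, 0.124 (0.0185 to 0.803), and Atf6, 0.289 (0.136 to 0.594). Sec62 followed with 0.313 (0.118 to 0.816), Syvn1 with 0.327 (0.129 to 0.805), Ssr2 with 0.334 (0.0238 to 3.58) and Pdia3 with 0.375 (0.26 to 0.535). Sec63 had 0.423, Spcs3 0.546 (0.34 to 0.872), Canx 0.697 (0.558 to 0.87) and Ssr3 0.706 (0.353 to 1.44). Of these, Creld2, Sec62, Syvn1, Ssr2 and Pdia3 had heavy ratios between 0.785 and 1.24, and light ratios between 2.83 and 6.34. Taken against total RNA, the heavy fraction gave a log2 change that turned from below 0 to above 0 for Pdia3 (0.06), Sec62 (0.02), Ssr2 (0.09) and Ssr3 (0.56), and from above to below for Edem1 (-0.01). Those 5 were past a threshold, and the sign also turned for 8 genes that were not, among them Ssr1 (0.48 to -0.59), Xbp1 (0.22 to -0.43), Dnajb11 (0.17 to -0.41) and Hspa5 (-0.39 to 0.11). Creld2 (-0.06), Syvn1 (-0.23) and Canx (-0.16) were no longer past the threshold, whereas Atf6 (-0.55), Sec63 (-0.67) and Spcs3 (-0.56) still were.

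Genes of the same pathways outside the list were similar in total RNA. Of 67 other ER genes, 66 were found and 63 compared, with 41 higher and 22 lower in WD total RNA, 8 at or above the upper and 5 at or below the lower threshold, and a median log2 ratio of 0.13. In the density change, 15 were at or above the upper and 22 at or below the lower threshold, with a median of 0.04. Vcp, the ATPase that pulls ERAD substrates from the membrane, lay furthest toward the heavy fraction in CD, with 71.4 FPKM in the light and 440 in the heavy fraction. Of the 26 cytosolic and mitochondrial heat shock chaperones, 20 were compared, with a median of -0.03 in total RNA, where 10 were higher and 10 lower. Hspa8, Hspa1a, Hspa1b and Hsp90aa1 did not pass the filter, and Tcp1 and Hspe1 were not found, so the list lacks these chaperones. The median log2 heavy over light of the 20 compared was 0.92 in CD and 1.07 in WD, against 0.00 and 0.11 for the ER genes, and this difference between lists was not tested.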

How the data were processed

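RNA was measured in 6 libraries of rat liver, each from pooled RNA of 3 rats. After depletion of ribosomal RNA, the authors used TopHat on Rnor_6.0 and deposited FPKM values from the Cufflinks pipeline, normalized between libraries, with lower and upper bounds. Whether the fractions took a separate Riboseq alignment is not certain. The gene list and all other lists were chosen with earlier results of these data known. All 38 genes could be named, with every library given for those past a threshold in total RNA or in both fractions and for the highest of each role. The thresholds of 1.5 and 0.75 are stated by the study for heavy over light of CD against WD, and were applied here to WD over CD, to abundance and within a diet.

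Ratios were taken after adding 0.1 FPKM, at 10201 named loci that had no failed estimate and reached 1 FPKM on average. Whole fragments were inferred from the steps of the deposited FPKM values for 74.8% of the 13283 genes detected in 2 or more libraries, and for 0.0376% once values were jittered by 1%. Intervals are 95% Clopper-Pearson or conditional odds ratio intervals. On simulated data, a first version assigned 1 library a wrong factor, because its commonest ratio was not 1 fragment to 1, and a check of divisibility was therefore added. The corrected method gave the true numbers for 98.2% of the genes that were given numbers among 7219 in that test, and left the factors of the real libraries as they were, where 47.2% to 49.7% of the numbers divided by 2. Of 200 genes planted with a 4-fold change in total RNA, 94.5% passed the thresholds in the right direction. Numbers with a common divisor cannot be told from smaller ones. Protein sequences were not analysed here, so the planned description of protein length was not made. Analyses used Python 3.11.15, numpy 2.4.6, pandas 2.3.3, scipy 1.17.1 and matplotlib 3.10.9. Alternatives were 10 planned and 3 added after seeing the data.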

Additional observations from a re-analysis of the deposited data

Results flagged for a closer look

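For 3 ER genes the WD over CD ratio passed a threshold in opposite directions in the light and the heavy fraction. This drew attention to them, but the share of all loci with this pattern is not given. The pattern is therefore not shown to be unusual. The log2 ratio in the heavy minus that in the light fraction was -1.79 for Atf6, -1.24 for Sec63 and 1.69 for Ssr4. With the libraries rescaled to the same sum, the light log2 ratio was 0.42 for Atf6 and 0.31 for Sec63, so of these only Ssr4 was still past a threshold in both fractions, and Manf and Spcs1 then passed in opposite directions as well. The difference was not tested, since each value comes from 1 library.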

How the results depend on the processing

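Over all alternatives, 2305 single-gene values kept any called direction and stayed within counting error, 40 moved further and 5 reversed. Of the counts and medians, 189 stayed close and 15 moved, and these came from 3 settings. Shares of all loci are not given for these settings. With each library rescaled to the same sum, 0 genes were at or below the lower threshold in total RNA, 6 were at or above the upper and 11 at or below the lower in the light fraction, and 8 were at or below the lower in heavy over light in WD. Called at 2 and 0.5, the upper and lower counts were 0 and 0 in total RNA, 5 and 0 in the light fraction, 1 and 1 in the heavy fraction and 6 and 3 in heavy over light in CD, the lower count was 7 in heavy over light in WD and the upper count of the density change was 2. When total RNA replaced the light fraction, the upper count was also 2, and the log2 change of density reversed, among genes past a threshold, for Pdia3 (0.06), Edem1 (-0.01), Sec62 (0.02), Ssr2 (0.09) and Ssr3 (0.56), and changed sign for 8 others. The cause was not tested. Counting the merged loci of Pdia4 and Hsp90b1, leaving out the 2 genes on loci over 1.5 times the RefSeq length, or applying the thresholds to CD over WD for the density change, all added after seeing the data, kept every count within 1.5 times. Applied to CD over WD for abundance, the thresholds changed counts more. Then 5 genes were higher in WD total RNA and 0 lower, and 6 were higher in the heavy fraction and 1 lower. Those counts are not among the 189 and 15 above, and shares of all loci are not given for them. Loci shorter than the RefSeq gene were kept in every setting, as for Ssr3 (0.176 times its length), Dnajb9 (0.442) and Herpud1 (0.522). No paired analysis was possible because each group had 1 library, and for the same reason no library could be left out. The median half-width of the counting interval on the log2 scale was 0.46 in total RNA, 0.41 in the light and 0.57 in the heavy fraction and 0.72 for the density change, so smaller differences were not detectable for a typical ER gene.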
